A study of Mus musculus with 6 samples.

Results

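Proteasome subunits and regulators were followed in mouse testis. The array carries 79 probes, of 41174 in all, whose gene name begins with Psma to Psmg and a number, and these probes stand for 49 of 27376 gene names. Psmc3ip, a meiotic recombination protein, enters by its name only and is no subunit, which leaves 48 genes of subunits, activators, an inhibitor and assembly factors on 16 chromosomes. The rule that chose them used names and no measured value, though earlier results of these data were known.

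The mice were 3 Prss54KO and 3 WT males, 6 to 8 weeks old, of a mixed 129Sv/C57BL/6 strain background. Each testis RNA went to its own 1-colour Agilent array. Prss54KO mice lack Prss54, a gene of the serine protease family; the sources used here do not describe the allele. The labels name no litters, so each animal counted as 1 replicate. P-values rest on the spread among 3 animals of a genotype, drawn by limma toward a spread shared over all tested probes. The design asks which testis transcripts differ when Prss54 is missing.

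The proteasome is the main protease of the cytosol and nucleus. Its core particle stacks alpha rings, which gate the entrance, around beta rings, which hold the catalytic sites. A regulatory particle of ATPases and other subunits recognises ubiquitin chains and unfolds the substrate, while other activators open the gate without it. Interferon and immune cells switch the constitutive catalytic subunits for immune ones. In mouse spermatocytes and spermatids the alpha subunit Psma8 takes the place of Psma7, and the activator Psme4 is abundant in the testis.

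The signal of a probe is the scanner's background-treated brightness. Its level is the log2 of that signal minus the 75th percentile of gene spots on the same array, which was 1654.9 to 1682.5 units on Prss54KO arrays and 1586.9 to 1706.9 units on WT arrays. Per array, 66.2% to 74.8% of gene spots stood well above background, and pairs of arrays had correlations of 0.994 to 0.996 in level. There were 3 slides: Prss54KO mice 1 and 2 with WT mouse 3 on slide 2, Prss54KO mouse 3 on slide 1, and WT mice 1 and 2 on slide 3. The test took 28923 probes, those that stood well above background in at least 3 of the 6 mice. Differences are Prss54KO minus WT in log2 units, with SE and interval from limma. For the steadiest probes this SE can exceed the SD of the levels. The bright Psmd2 probe had an SE of 0.047, with SDs of 0.021 over Prss54KO and 0.0054 over WT mice. Brightness depends on the probe as well as the transcript, so no probe's signal is set against another's. In whole testis, fewer cells of a type and less RNA per cell cannot be told apart.

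Prss54 gave signals of 7381, 9466 and 8416 in Prss54KO mice 1 to 3, against 22677, 24152 and 26120 in WT mice 1 to 3. The genotypes did not overlap, with a difference of -1.56 (SE 0.10, 95% interval -1.82 to -1.31). Limma's adjusted p over all probes was 0.116, short of the 0.05 threshold. The sources used here do not say whether this probe lies in the deleted part of the gene.

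Each probe is 60 bases long, and 28 of the 79 cover more than 60 bases of the genome by the positions in the files, with spans of 61 to 20420 bases. The probes of the immune and constitutive catalytic subunits are printed here as deposited, because the values of these subunits rest on the stretches that they read. Positions are on the mm9 build. The immune subunits are Psmb8 (probe 1 at chr17:34337828-34338152, probe 2 at chr17:34337771-34337830, plus strand), Psmb9 (chr17:34319174-34319233, minus strand) and Psmb10 (chr8:108459677-108459736, minus strand). The constitutive subunits are Psmb5 (chr14:55233161-55233220, minus strand), Psmb6 (chr11:70341014-70341073, plus strand) and Psmb7 (chr2:38468966-38489385, minus strand). Capitals mark the 3 bases that both Psmb8 probes share.
Psmb8 probe 1: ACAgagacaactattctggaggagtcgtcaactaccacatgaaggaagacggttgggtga
Psmb8 probe 2: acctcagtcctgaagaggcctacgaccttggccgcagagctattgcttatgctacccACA
Psmb9: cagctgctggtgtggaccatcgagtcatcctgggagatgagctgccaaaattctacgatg
Psmb5: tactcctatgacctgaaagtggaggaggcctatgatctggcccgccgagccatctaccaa
Psmb6: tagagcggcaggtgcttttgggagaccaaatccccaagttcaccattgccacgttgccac
Psmb7: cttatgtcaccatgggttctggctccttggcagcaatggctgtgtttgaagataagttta
Psmb10: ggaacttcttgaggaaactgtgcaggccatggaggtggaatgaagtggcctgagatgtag

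Transcripts of nearly every proteasome gene were measured in these testes. Of the 79 probes, 72 were well above background on all 6 arrays, 2 on some arrays and 5 on none. The 5 were both probes of Psmb11, the catalytic subunit of thymus epithelium, and 1 of several probes each for Psma2, Psma3 and Psmd14. The 74 probes that passed the filter stand for 48 genes, all but Psmb11.

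The 2 genotypes were close to each other over these 74 probes. With limma, 0 of 74 had an adjusted p under 0.05, as for 0% of all tested probes, and the lowest adjusted p was 0.9998. At an unadjusted p under 0.05 there were also 0, against 3.21% of all tested probes, and the smallest p was 0.102. The mean was higher in Prss54KO for 38 probes and lower for 36, where it was higher for 53.4% of all tested probes. The median difference was 0.0055 for the proteasome probes and 0.0071 for all tested probes. It was 0.0026 with slide as a block, and the same on slide 2 alone.

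Over all mice the differences ranged from -0.23 to 0.15. With slide as a block, where 1 WT mouse meets 2 Prss54KO mice on slide 2, they ranged from -0.52 for the dim Psmd4 probe to 0.60 for the dim Psmf1 probe. A difference under 0.1 in either direction was found for 69 probes, or 93.2%, against 70.9% of all tested probes. For 61 probes, or 82.4%, the whole 95% interval lay within 1.2-fold either way, against 48% of all tested probes. These shares go with the low spread of the same probes, described further on, and were given no test. They were not matched for level, and few members were dim. At levels from -5 to -4 members were 2 of 3229 tested probes, against 15 of 1874 from 2 to 3. The median SD over WT mice of all tested probes was 0.18 in the first step and 0.06 in the second.

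**Figure D1:**
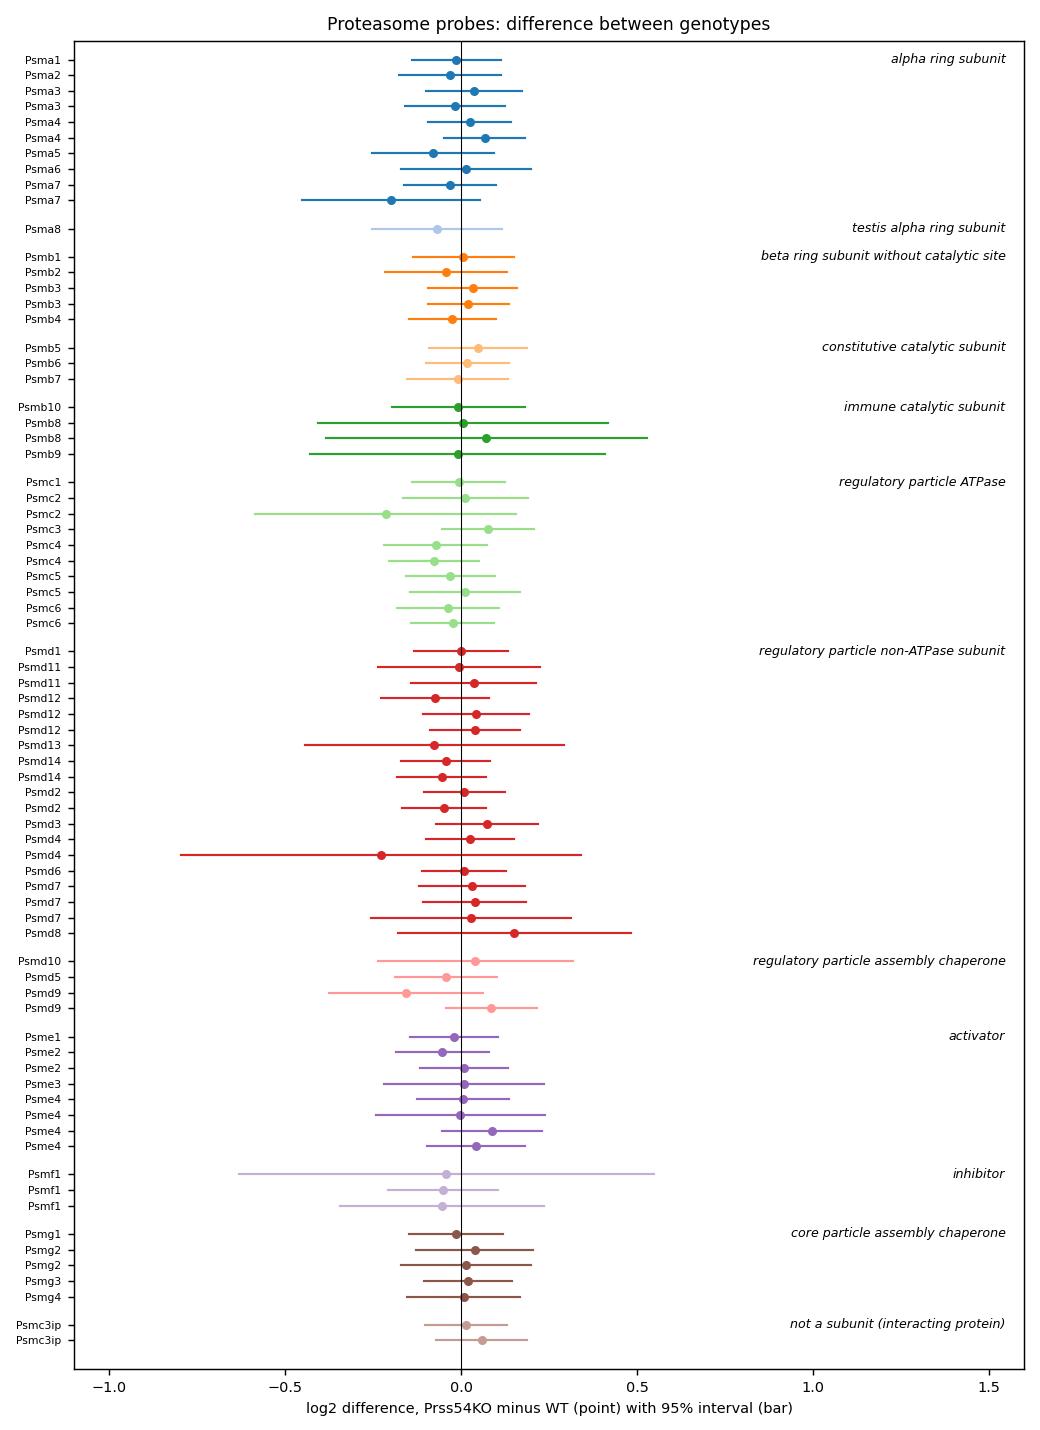
Log2 difference, Prss54KO minus WT, of each tested proteasome probe (point) with its 95% interval (bar), grouped by role from top to bottom. Points lie between -0.23 and 0.15, every interval includes 0, and the long bars include those of the dim probes, Psmb8, Psmb9, Psmd13 and Psmd8.

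Psma8, the alpha subunit of the germ cell proteasome, was bright in every mouse. Its single probe, on chromosome 18, gave 38107, 39642 and 40061 in Prss54KO mice, against 41996, 41006 and 38077 in WT mice. WT mouse 3 was the lowest of the 6 and WT mice 1 and 2 the highest, so the genotypes overlapped. The difference was -0.07 (SE 0.08, 95% interval -0.25 to 0.12). It was 0.07 with slide as a block, which reverses its direction.

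Psma7, the somatic counterpart of Psma8, has a bright and a dim probe. The bright one gave 8309, 8317 and 7953 in Prss54KO mice, against 8139, 7730 and 8775 in WT mice, a difference of -0.03 (SE 0.05). The dim one gave 129.0, 121.1 and 143.3 in Prss54KO mice, against 153.3, 154.7 and 134.5 in WT mice. Prss54KO mouse 3 lay above WT mouse 3 on this probe, and its difference of -0.20 (SE 0.10, 95% interval -0.45 to 0.05) had the smallest p of all the members.

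The remaining alpha subunits, which form the gated outer ring, differed little. Over the 7 alpha genes other than Psma8, 10 of 12 probes were tested, 4 higher and 6 lower in Prss54KO, with a median of -0.01. Psma5 showed -0.08 (SE 0.07) and Psma3 showed 0.04 (SE 0.06) on its bright probe. Psma4 was the alpha gene with a probe whose genotypes did not overlap. Its levels on that probe were 2.21, 2.22 and 2.26 in Prss54KO mice and 2.16, 2.17 and 2.17 in WT mice. This difference was 0.07 (SE 0.05), and the second Psma4 probe gave 0.02 (SE 0.05). Beta subunits without a catalytic site, Psmb1 to Psmb4, ranged from -0.04 to 0.03 over 5 probes.

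Constitutive catalytic subunits were measured with small spread. Psmb5, which cuts after hydrophobic residues, gave 15271, 15076 and 16256 in Prss54KO mice, against 14446, 13799 and 15976 in WT mice. Psmb6, which cuts after acidic residues, gave 42314, 41439 and 41505 in Prss54KO mice, against 39148, 39797 and 42308 in WT mice. Psmb7, which cuts after basic residues, gave 10964, 11179 and 11982 in Prss54KO mice, against 11520, 10493 and 11667 in WT mice. The genotypes overlapped in level for all 3 genes. The differences were 0.05 for Psmb5 (95% interval -0.09 to 0.19), 0.02 for Psmb6 (95% interval -0.10 to 0.14) and -0.01 for Psmb7 (95% interval -0.15 to 0.13). With slide as a block Psmb5 turned to -0.04.

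Of the immune catalytic subunits, Psmb8 and Psmb9 were spread widely over Prss54KO mice, with SDs of the level of 0.32 to 0.34. That of Psmb10 was 0.07. Psmb8, which replaces Psmb5, gave 377.1, 247.6 and 266.3 on probe 1 in Prss54KO mice, against 269.9, 308.8 and 277.8 in WT mice. Its probe 2 gave 397.2, 254.5 and 273.6 in Prss54KO mice, against 244.8, 313.0 and 292.2 in WT mice. Psmb9, which replaces Psmb6, gave 340.2, 215.7 and 236.3 in Prss54KO mice, against 239.0, 266.3 and 261.3 in WT mice. All 3 probes were highest in Prss54KO mouse 1. In level they were lowest in Prss54KO mouse 2 for Psmb9 and Psmb8 probe 1, and in WT mouse 1 for Psmb8 probe 2. Psmb10, which replaces Psmb7, gave 3174, 2883 and 2921 in Prss54KO mice, against 2920, 2638 and 3317 in WT mice, and was highest in WT mouse 3.

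The genotype difference was 0.00 for Psmb8 probe 1 (95% interval -0.41 to 0.42), 0.07 for probe 2 (95% interval -0.38 to 0.53) and -0.01 for Psmb9 (95% interval -0.43 to 0.41). That of Psmb10 was -0.01 (95% interval -0.20 to 0.18). The intervals of Psmb8 and Psmb9 are wider than those of Psmb10 and of the constitutive subunits. The SD of the Psmb9 level was 0.34 over Prss54KO mice and 0.09 over WT mice. The median difference of the 4 immune probes was -0.0014 over all mice, -0.15 without Prss54KO mouse 1, 0.12 without Prss54KO mouse 2, and 0.12 with slide as a block or on slide 2 alone.

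**Figure D2:**
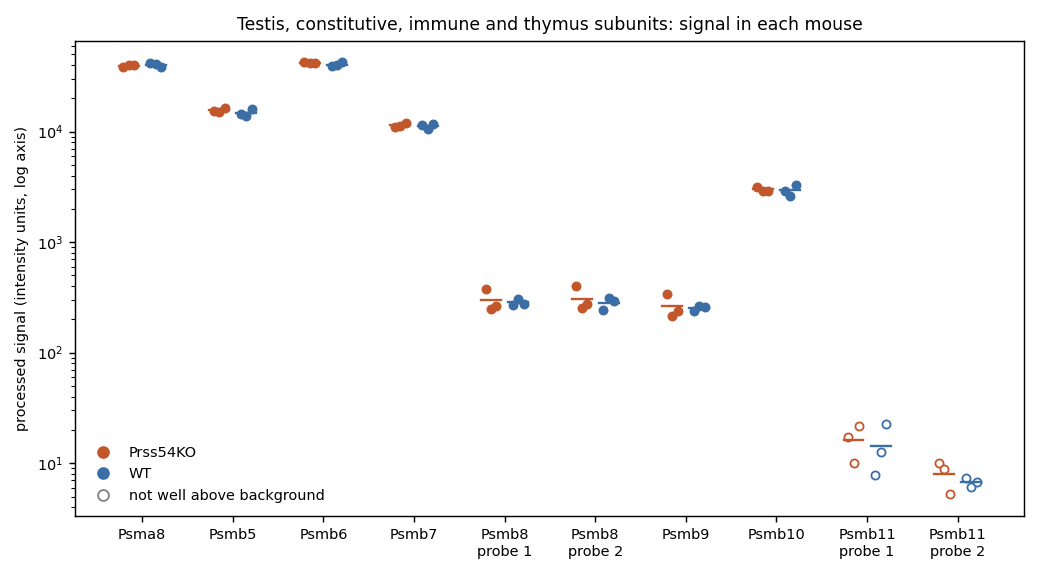
Processed signal (intensity units, log axis) of Psma8 and the catalytic subunits in each mouse, Prss54KO left and WT right for each probe, with the mean as a line. Filled points mark probes above background in every mouse of the genotype. The Psmb11 probes are not well above background on any array, and 1 Prss54KO point stands above the rest for Psmb8 and Psmb9.

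Psmb11 gave signals between 5.26 and 21.8 in Prss54KO mice and between 6.15 and 22.7 in WT mice over its 2 probes, none well above background. The order of these values carries no information.

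Other genes of antigen presentation often had their highest level in Prss54KO mouse 1 and their lowest in Prss54KO mouse 2. In a list of 17 such genes with a probe, 22 of 31 probes were tested, which stand for 12 genes. Of these probes 9 were higher and 13 lower in Prss54KO. With limma, 0 passed the threshold and 0 had an unadjusted p under 0.05, and the median difference was -0.02. Prss54KO mouse 1 was the highest of the 6 for 14 of the 22 probes, against 16.7% of all tested probes. Prss54KO mouse 2 was the lowest for 12, against 16.5% of all tested probes. B2m, the light chain of class I molecules, gave 6753, 4571 and 5313 on its brighter probe in Prss54KO mice, against 5082, 5384 and 5565 in WT mice. Gbp2, an interferon-induced GTPase, gave 403.8, 249.4 and 257.0 in Prss54KO mice, against 244.3, 262.6 and 291.3 in WT mice. B2m and Gbp2 were chosen after their values were seen, and other genes of the list went otherwise. Erap1, which trims peptides for class I molecules, gave 279.7, 313.6 and 314.3 in Prss54KO mice, against 318.2, 287.0 and 332.1 in WT mice, and was lowest in Prss54KO mouse 1. Ifngr2, a chain of the interferon gamma receptor, was highest in WT mouse 3 and lowest in Prss54KO mouse 3 on 1 of its probes. Tap1, Ifng and Cxcl10 were well above background on no array.

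Some leukocyte markers had the same extremes. Of 20 marker genes with a probe, 15 were well above background on all 6 arrays and Itgam on none. The 22 tested probes stand for 18 genes. Prss54KO mouse 1 was the highest for 9 of the 22, against 16.7% of all tested probes. Prss54KO mouse 2 was the lowest for 11 of them, against 16.5% of all tested probes. The summed signal of the markers, relative to each array's 75th percentile, was 8.97, 7.62 and 8.19 in Prss54KO mice, against 8.36, 8.05 and 8.78 in WT mice. Prss54KO mouse 1 had the highest sum and Prss54KO mouse 2 the lowest, in the same order as Psmb9 within Prss54KO mice. Within WT mice the order was not the same. WT mouse 2 had the lowest sum of the WT mice and their highest Psmb9 level. The part of leukocytes in the values of the immune subunits was not tested. Cd79a, a B cell receptor chain, gave 49.3, 43.1 and 38.0 in Prss54KO mice, against 22.6, 20.7 and 35.6 in WT mice. It was well above background in 2 Prss54KO mice and 1 WT mouse, so that its size is not well measured. With limma, 0 of the 22 probes passed the threshold, with 8 higher and 14 lower in Prss54KO. An unadjusted limma p under 0.05 was found for 1, that of Cd79a, against 3.21% of all tested probes.

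**Figure D3:**
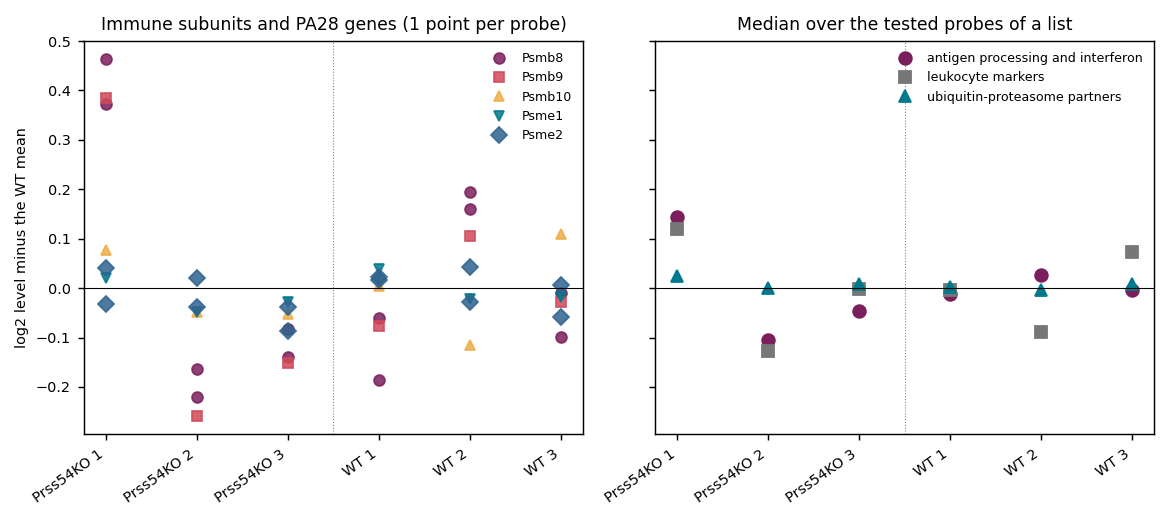
Log2 level minus the WT mean in each mouse, Prss54KO left of the dotted line and WT right of it, for the probes of immune subunits, Psme1 and Psme2 (left panel) and as medians of 3 gene lists (right panel). Psmb8 and Psmb9 lie highest in Prss54KO mouse 1, where the antigen processing list has its highest median, 0.14, and the partner list stays near 0.

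Activators and the inhibitor showed no difference past the threshold. Psme1 and Psme2, subunits of the interferon-inducible activator, had a small spread in both genotypes. Psme1 gave 5975, 5642 and 5816 in Prss54KO mice, against 5855, 5511 and 5949 in WT mice, a difference of -0.02 (SE 0.05). The 2 probes of Psme2 gave -0.05 (SE 0.05) and 0.01 (SE 0.05), and Psme3, the nuclear activator, gave 0.01 (SE 0.09). Psme4, the activator that promotes histone breakdown in spermatids, gave 94764, 87867 and 90333 on its brightest probe in Prss54KO mice, against 85570, 86823 and 94044 in WT mice. The genotypes overlapped, and the 4 probes of Psme4 ranged from 0.00 to 0.09. Psmf1, an inhibitor of the core particle, had 3 probes between -0.05 and -0.04. Its brightest gave 22564, 20081 and 16671 in Prss54KO mice, against 18895, 19301 and 21812 in WT mice, with both extremes in Prss54KO. Its dimmest probe, well above background on 2 arrays of each genotype, gave -0.04 over all mice and 0.60 on slide 2 alone.

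The ATPases Psmc1 to Psmc6 unfold the substrate. Of their 10 probes 3 were higher and 7 lower in Prss54KO, with a median of -0.03. Psmc3 had levels of 4.32, 4.34 and 4.32 in Prss54KO mice and 4.19, 4.24 and 4.31 in WT mice. Its genotypes did not overlap, but WT mouse 3 lay close to the Prss54KO mice. The difference was 0.08 (SE 0.05, unadjusted limma p of 0.201). Psmc4 had levels of 2.69, 2.71 and 2.61 on 1 probe in Prss54KO mice and 2.74, 2.76 and 2.74 in WT mice, a difference of -0.08 (SE 0.05). Its second probe gave -0.07 (SE 0.06), with an overlap between genotypes.

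The non-ATPase subunits include the ubiquitin receptor Psmd4 and the deubiquitinase Psmd14. Of their 19 tested probes, 11 were higher and 8 lower in Prss54KO, with a median of 0.01. Psmd8, a lid subunit, had the highest difference of all the members, 0.15 (SE 0.14). Its signals were 52118, 53184 and 50088 in Prss54KO mice, against 49173, 35793 and 54132 in WT mice, and WT mouse 2 stood apart. Without WT mouse 2 the difference was -0.0022. Psmd3, another lid subunit, gave 31014, 29546 and 33253 in Prss54KO mice, against 28267, 27991 and 31106 in WT mice, a difference of 0.07 (SE 0.06). Psmd13 was spread widely in both genotypes, with 1474, 1741 and 2009 in Prss54KO mice, against 1775, 2005 and 1594 in WT mice. Psmd14 gave -0.04 (SE 0.05) and -0.06 (SE 0.05) on its tested probes.

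Of the assembly factors none passed the threshold. The 4 probes of Psmd5, Psmd9 and Psmd10, chaperones of the regulatory particle, were 2 higher and 2 lower, from -0.16 to 0.09, both ends being probes of Psmd9. Psmg1 to Psmg4, which help to build the core particle, lay between -0.01 and 0.04 over 5 probes. Psmc3ip, the recombination protein, had 0.01 (SE 0.05) and 0.06 (SE 0.05).

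Across all members, 4 probes had genotypes that did not overlap, 5.41%, against 7.88% of all tested probes. Those of Psma4, Psmc3 and Psmd9 were higher in Prss54KO and that of Psmc4 was lower. Over all tested probes, 4.32% did not overlap with Prss54KO higher and 3.56% with Prss54KO lower. The members' share was not above that of the array.

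Of the 21 genes with several tested probes, 16 had probes whose differences lay within 0.1 of each other. The widest disagreements were in Psmd4, Psmd9 and Psmc2. The probes of Psmd4 and Psmc2 are shown, as they read different stretches of 1 gene, with mm9 positions of chr3:94837931-94838529 and chr3:94837208-94837267 for Psmd4 (minus strand), and of chr5:21309053-21309205 and chr5:21303298-21303357 for Psmc2 (plus strand).
Psmd4 bright probe: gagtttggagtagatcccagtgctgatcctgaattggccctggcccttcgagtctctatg
Psmd4 dim probe: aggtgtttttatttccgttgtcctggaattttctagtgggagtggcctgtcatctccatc
Psmc2 bright probe: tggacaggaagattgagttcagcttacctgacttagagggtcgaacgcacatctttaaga
Psmc2 dim probe: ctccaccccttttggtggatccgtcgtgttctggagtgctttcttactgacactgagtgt
The dim Psmd4 probe gave 66.7, 116.3 and 93.0 in Prss54KO mice, against 101.0, 82.9 and 129.9 in WT mice, a difference of -0.23 (SE 0.23). It ran from -0.42 to -0.01 with 1 mouse left out and was -0.52 with slide as a block. The bright one gave 0.03 (SE 0.05). For Psmc2 the dim probe gave 88.7, 100.8 and 120.3 in Prss54KO mice, against 99.9, 133.7 and 118.4 in WT mice, a difference of -0.21 (SE 0.15), and the bright one gave 0.01 (SE 0.07). In both genes the dim probe had the larger difference and the larger error. All 6 probes of Psmd4, Psmc2 and Psmd9 were well above background in every mouse. The levels of Psmd9 were 1.31, 1.35 and 1.33 in Prss54KO mice and 1.18, 1.27 and 1.28 in WT mice on one probe, a difference of 0.09 (SE 0.05). On the other probe they were -0.91, -1.12 and -0.94 in Prss54KO mice and -0.70, -0.85 and -0.95 in WT mice, a difference of -0.16 (SE 0.09). Neither passed the threshold.

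Proteasome probes varied little between mice of a genotype. The median SD of the level was 0.048 over Prss54KO mice and 0.056 over WT mice, against 0.099 over Prss54KO mice and 0.090 over WT mice for all tested probes. Bright probes vary less on these arrays, so each probe was also set beside all tested probes in the same step of 1 log2 unit in level. Its SD lay below the median of that step for 53 of 74 probes in Prss54KO mice and for 50 of 74 in WT mice. The smallest SD over WT mice was that of Psmd2, a scaffold subunit of the regulatory particle, at 0.0054 on its bright probe. The largest were 0.48 for the dim Psmf1 probe, 0.27 for the dim Psmd4 probe and 0.27 for Psmd8.

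**Figure D4:**
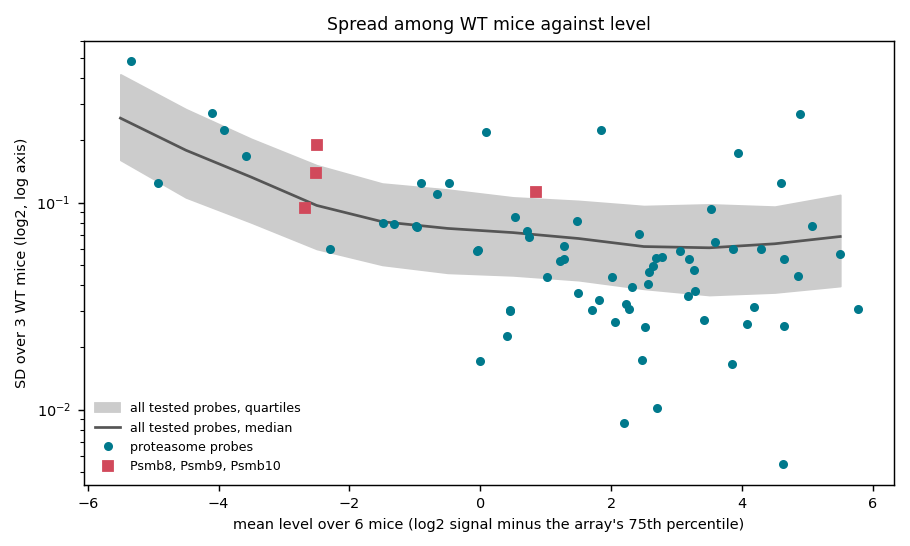
SD of the level over 3 WT mice (log axis) against the mean level over 6 mice, for each tested proteasome probe. The grey band and line are the quartiles and the median of all tested probes by level. Of 74 proteasome probes, 50 lie below the median of their step, and 3 of the 4 immune probes lie above it.

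Psmb10 and Psmd7 lie on chromosome 8, as Prss54 does, 10.4 Mb and 12.02 Mb from its probe on mm9. Psmd7, which pairs with Psmd14 in the lid, gave 0.03, 0.04 and 0.03 over its 3 probes. The 4 probes of these genes lay below 0.1 in either direction over all mice. With slide as a block 1 Psmd7 probe turned to -0.17.

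The factors that serve the proteasome were likewise close between genotypes. The list held 36 genes with a probe, among them ubiquitin receptors, deubiquitinases, assembly factors and the transcription factors of proteasome genes, and 68 of 71 probes were tested. With limma, 0 passed the threshold, 38 were higher and 30 lower in Prss54KO, and the median difference was 0.01. At an unadjusted limma p under 0.05 there was 1 probe of the 68, against 3.21% of all tested probes. This probe was of Ngly1, the deglycosylase that activates Nfe2l1. It gave 68.1, 65.6 and 66.7 in Prss54KO mice, against 58.2, 56.1 and 61.6 in WT mice, with no overlap and a difference of 0.16 (SE 0.05). The other Ngly1 probes gave 0.01 and 0.02. In the list 2 probes had genotypes that did not overlap, 2.94%, against 7.88% of all tested probes. Besides that of Ngly1 it was a probe of Ubqln4, with 0.15 (SE 0.07). The lowest difference of the list was -0.29 (SE 0.14), on a dim probe of Ufd1l. Nfe2l1, the factor that raises proteasome genes when proteasome activity is low, gave 0.04 (SE 0.06). Pomp, which matures the core particle, gave 33821, 30939 and 33194 in Prss54KO mice, against 32668, 27849 and 32639 in WT mice, a difference of 0.05 (SE 0.07).

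Cell type markers of the testis were also present. With limma, 0 of 18 germ cell probes, 0 of 9 Sertoli probes and 0 of 9 Leydig probes passed the threshold, and 0 in each had an unadjusted p under 0.05. The median difference was 0.03 for germ cell, 0.01 for Sertoli and -0.09 for Leydig markers. In Prss54KO 12 germ cell probes were higher and 6 lower, and 5 Sertoli probes higher and 4 lower. Of the 9 Leydig probes 1 was higher and 8 lower. The genotypes did not overlap for 1 of the 9, that of Hsd3b1, which was lower, against 7.88% of all tested probes. Star, the cholesterol carrier of Leydig cells, gave -0.58 (SE 0.24) and -0.69 (SE 0.28). On both Star probes WT mouse 2 lay among the Prss54KO mice, so the genotypes overlapped. The lowest Leydig difference was -1.08, on a widely spread Cyp11a1 probe. Its level minus the WT mean was 0.17, -2.20 and -1.21 in Prss54KO mice, against -0.76, 1.18 and -0.42 in WT mice. On the other Cyp11a1 probes Prss54KO mice lay between -0.09 and 0.02 from the WT mean. The Leydig probe that was higher, of Hsd3b6, gave 0.19 (SE 0.25).

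Promoter sequences were taken from RefSeq (GRCm38.p6), as windows of 300 bases over the gene's start, for 41 of the 49 genes with 44 promoters. Those of Psmb8, Psme1 and Psmb5 are shown as examples, each with a different motif. Capitals mark the motif found: TTCNNNGAA, the gamma-activated site, in Psmb8 (chr17:34197945-34198244, plus strand), the interferon-stimulated response element, searched as GAAA, any 2 bases and GAAA, and read on the other strand, in Psme1 (chr14:55578244-55578543, plus strand), and TGACNNNGC, the core of the antioxidant response element that Nfe2l1 also binds, in Psmb5 (chr14:54617946-54618245, minus strand).
Psmb8: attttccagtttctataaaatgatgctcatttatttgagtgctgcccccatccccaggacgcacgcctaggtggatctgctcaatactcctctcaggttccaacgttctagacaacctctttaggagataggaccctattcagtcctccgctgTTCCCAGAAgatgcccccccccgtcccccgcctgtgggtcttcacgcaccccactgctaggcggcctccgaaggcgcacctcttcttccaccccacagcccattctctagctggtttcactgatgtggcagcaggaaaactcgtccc
Psme1: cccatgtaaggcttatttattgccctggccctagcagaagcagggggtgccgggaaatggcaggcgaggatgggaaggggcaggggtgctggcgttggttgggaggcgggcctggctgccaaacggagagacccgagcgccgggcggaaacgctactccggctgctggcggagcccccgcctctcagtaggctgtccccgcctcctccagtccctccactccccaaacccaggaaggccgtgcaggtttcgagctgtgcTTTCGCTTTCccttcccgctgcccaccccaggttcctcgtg
Psmb5: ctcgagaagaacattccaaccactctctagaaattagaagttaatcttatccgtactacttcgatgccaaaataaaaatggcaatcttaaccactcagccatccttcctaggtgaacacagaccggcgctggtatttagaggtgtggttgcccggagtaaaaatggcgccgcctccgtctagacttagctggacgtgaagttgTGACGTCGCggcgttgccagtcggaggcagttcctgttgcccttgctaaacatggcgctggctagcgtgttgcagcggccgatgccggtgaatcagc
Both strands were searched. The interferon-stimulated response element stood in 5 of the 44 promoters, 11.4%, against 3.44% of all 32851 promoters of this length, and the genes were Psmb3, Psmd4, Psmd9, Psme1 and Psmg4. TTCNNNGAA stood in 3, 6.82%, against 8.30% of all, in Psmb8, Psmd2 and Psmg1. The promoter of Psmb9 held neither the interferon-stimulated response element nor TTCNNNGAA. Any part of these motifs in the spread between mice was not tested. TGACNNNGC stood in 6, 13.6%, against 12.4% of all, and CCAAT in 15, 34.1%, against 37.4% of all. These matches describe the letters only.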

How the data were processed

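Total RNA of 6 testes was labelled with Cy3 from 0.5 ug each, per the labels' protocols. The deposited scanner files hold linear spot intensity and flags for spots well above background, saturated or outlying; per the file headers they come from Agilent Feature Extraction 10.7.3.1 (10.7 per the submitters' processing notes), with probe positions on mm9. The deposited table holds log2 values whose 6 columns share the quantiles tested (median 7.72); it served as an alternative only.

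Of 45018 spots, 43379 detect genes; 0 were saturated, and 86 to 142 outlier spots per array were left out. Spots of a probe were averaged after scaling to the 75th percentile. Genotypes were compared with limma 3.58.1 (R 4.3.3; lmFit, eBayes, two-sided), adjusted by Benjamini-Hochberg over 28923 probes at a threshold of 0.05. The number of arrays limits the precision. The fit was tested on simulated data.

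The members, roles and lists were chosen with earlier results of these data known. The text names Prss54, every probe of Psma8, Psma7, Psmb5 to Psmb11, Psme1 to Psme4, Psmf1 and Psmc3ip, the 5 members per direction with the smallest p, the 3 genes whose probes differ most, the 3 probes with the largest and the 3 with the smallest WT SD, and some of the 2 probes per direction picked from each list. Others (B2m, Gbp2, Pomp, Nfe2l1, Cyp11a1, Psma3, Psma5, Psmd7, Psmd13, Psmd14, the second Psma4 probe, the other Ngly1 probes and genes on no array) were named after their values were seen. Alternatives were quantile or median scaling, normexp with an offset of 50, other filters, the brightest probe per gene, the authors' table, slide as a block or slide 2 alone, a replicate block, array weights, an intensity trend with robust variance, and each mouse left out.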

Additional observations from a re-analysis of the deposited data

How the results depend on the processing

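No proteasome, partner or antigen processing probe passed the threshold under any alternative. Over all probes limma called 1 with normexp, 1 with slide as a block and 2 with an intensity trend, against 0. Prss54 kept its direction, and passed with normexp (-1.54, adjusted p 0.00581) and with the trend (-1.56, adjusted p 0.00993). Proteasome probes at an unadjusted limma p under 0.05 numbered 1 with slide as a block and 1 on slide 2 alone (the dim Psmf1 probe), 1 with array weights (the dim Psma7 probe), and 0 to 2 with a mouse left out, the 2 (dim Psmf1 and Psma7 probes) without WT mouse 3. Over all probes that count was 929, with 1676 unfiltered, 1505 with array weights, 579 without WT mouse 1 and 1799 without WT mouse 3.

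The median of the proteasome probes, 0.0055, became -0.0043 with quantile scaling, -0.013 with median scaling, -0.0063 in the authors' table and -0.0036 with array weights, and ran from -0.0096 to 0.0082 with a mouse left out. The median of the immune probes became 0.12 with slide as a block and on slide 2 alone, and ran from -0.15 to 0.12 with a mouse left out. Replicate numbers did not pair the samples: same-numbered mice correlated at -0.04, 0.02 and -0.15 in their deviations. The replicate block called 0 proteasome probes, left the median at 0.0055 and put 1133 of all probes at an unadjusted p under 0.05.

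Single named differences, nearly all close to 0 and none past the threshold, turned their sign as follows, and the cause was not tested. With slide as a block, and with the same values on slide 2 alone, they were -0.17 for Psmd7, 0.045 for Psmd13, -0.016 for the second Psma4 probe, -0.031 for Ngly1 (brightest), -0.0083 for Dmrtb1, -0.016 for H2-K1, -0.35 for Hsd3b6, 0.011 for Piwil1, 0.067 for Psma8, -0.037 for Psmb5, 0.090 for Psmb9, -0.0086 for Psmc3ip, -0.0015 for Psmd3, -0.018 for Psmd4 (bright), -0.0024 for Psmd8, 0.0027 for Psme1, 0.023 for Psme2, -0.0058 for Psme4 (brightest), 0.60 for the dim and 0.0026 for the brightest Psmf1 probe, and 0.070 for Sox9. As a random block slide gave 0.031 for the dim Psmf1 probe. Normexp gave -0.022 for Psma3, 0.0039 for Psmb10, -0.061 for Psmb8 probe 1, 0.0094 for Psmb9, -0.011 for Psmc2 (bright), -0.037 for Psmc3ip, -0.012 for Psmd2, 0.024 for Psme1 and 0.0099 for the dim Psmf1 probe. Array weights gave -0.021 for B2m, 7.1e-05 for Psmb10, -0.022 for Psmb8 probe 1, -0.021 for Psme3 and 0.011 for the dim Psme4 probe. Median scaling gave -0.012 for B2m, -0.0045 for Ngly1, -0.00033 for Psmb6, -0.014 for Psmb8 probe 1, -0.0071 for Psmc2, -0.0049 for Psmc3ip, -0.0092 for Psmd2, -0.011 for Psme2, -0.0098 for Psme3 and -0.012 for Psme4. Quantile scaling gave -0.0031 for B2m, -0.0022 for Psmb8 probe 1, -0.0042 for Psmc2, -0.0025 for Psmc3ip, -0.0053 for Psmd2 and -0.025 for Psme4. The authors' table gave -0.0049 for B2m, -0.0053 for Psmb8 probe 1, -0.0065 for Psmc2, -0.0019 for Psmc3ip, -0.0056 for Psmd2 and -0.022 for Psme4.

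With a mouse left out, signs turned within these ranges: Amh -0.017 to 0.37, Rhox5 -0.018 to 0.11, B2m -0.14 to 0.13, Gbp2 -0.097 to 0.24, Pomp -0.0085 to 0.093, Ngly1 -0.022 to 0.082 and (brightest) -0.027 to 0.056, Psmd7 -0.00041 to 0.070 and (the probe that slide turns) -0.097 to 0.12, Psmd13 -0.19 to 0.040, Psmb10 -0.065 to 0.047, Psmb7 -0.042 to 0.018, Psmb8 probe 1 -0.18 to 0.12 and probe 2 -0.12 to 0.19, Psmb9 -0.21 to 0.12, Psmc2 (bright) -0.029 to 0.073, Psmc3ip -0.0012 to 0.021, Psmd2 -0.0024 to 0.016, Psmd8 -0.0022 to 0.24, Psme1 -0.039 to 0.00045, Psme2 -0.0084 to 0.030, Psme3 -0.066 to 0.088, Psme4 (brightest) -0.023 to 0.025 and (dim) -0.081 to 0.052, Psmf1 (dim) -0.32 to 0.14 and (brightest) -0.15 to 0.069. With 3 arrays per genotype, and signals near background for the dim probes, differences of this size could not be resolved.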
